A study of Mus musculus with 6 samples.

Results

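Protocadherins are the largest subgroup of the cadherin superfamily, single-pass membrane proteins with extracellular cadherin repeats that bind calcium and mediate recognition between cells. The genes examined here were chosen by symbol: every protein-coding gene whose symbol starts with Pcdh. Of 69 such genes in the mouse annotation used, 54 were listed among the 22032 genes of the deposited table. These were 3 genes of the alpha cluster (Pcdha), 21 of the beta cluster (Pcdhb), 21 of the gamma cluster (Pcdhg) and 9 genes that lie outside the clusters. The family was singled out with the rise of Pcdh7 in these libraries already known, so Pcdh7 and every count that includes it are given as a description, and Pcdh7 carries no test.

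RNA was sequenced from 6 libraries of the mouse line mDE6, 3 expressing the hairpin shControl and 3 expressing shArl4c, a hairpin against Arl4c, which encodes an ARF-like small GTPase. No other treatment, genotype or time is given for either group. The labels name neither a tissue nor the hairpin sequences, so the effect of a single Arl4c hairpin group was seen against a single control. They do not say that the samples were separate cultures, so p-values reflect sample-to-sample spread alone, and that spread may be technical.

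The clustered genes are arranged in tandem. In the alpha and gamma clusters each variable exon has its own promoter and is spliced to constant exons that all members of the cluster share, while each beta gene is essentially a single coding exon. In neurons the variable promoters are chosen in a largely random manner with the help of the insulator protein CTCF and cohesin, and the proteins act in self-recognition of neurites, whereas the C-type members at the end of the alpha and gamma clusters are expressed more uniformly. The non-clustered genes, mostly of the delta subgroup, are transcribed from single promoters and function in cell sorting, migration and actin regulation in many embryonic tissues.

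Library depth was 12316770 to 14976113 reads, as recovered from the CPM table (reads relative to a scaled library size). A single read equalled 0.0672 to 0.0827 CPM. With 0 reads counted, a level of up to 3 reads (0.202 to 0.248 CPM) is possible from counting error. Values are mean ± SD, n = 3 libraries per group. Log2 fold changes are of CPM + 1, shArl4c minus shControl, which understates the change of low genes, and they are given with the standard error (SE) of the limma fit. The 14740 genes whose mean CPM over all libraries reached 1 were tested, and a gene was called at a Benjamini-Hochberg adjusted p under 0.05 over all of them. Arl4c itself averaged 20.6 ± 0.480 CPM with the control hairpin and 7.02 ± 0.353 CPM with its own. In bulk RNA, fewer cells of a kind and less RNA per cell cannot be told apart.

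Summed over the 54 genes, protocadherin reads were 607, 612 and 621 CPM in the shControl libraries and 780, 795 and 772 CPM in the shArl4c libraries, with no overlap. The difference lay in the non-clustered genes. Their sum was 185 ± 3.69 CPM in shControl and 348 ± 4.03 CPM in shArl4c, a ratio of 1.88, while the 45 clustered genes summed to 428 ± 3.62 and 434 ± 9.31 CPM. The clustered sum overlapped between groups and its ratio was 1.01. Sums were not tested, and the difference between clustered and non-clustered genes was not tested.

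**Figure D1:**
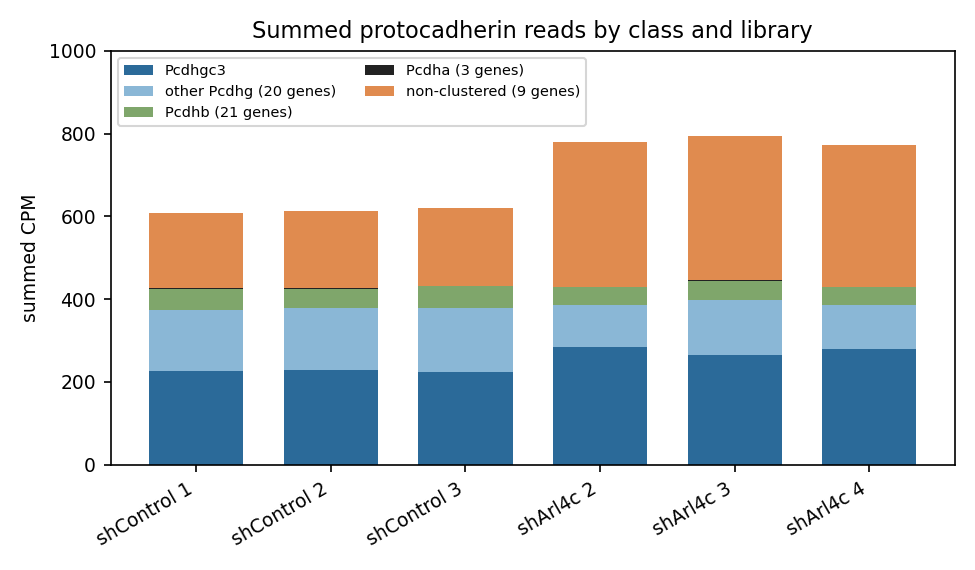
Summed CPM of the protocadherin genes in each library, stacked by class; each bar is 1 library and starts at 0. The non-clustered segment is 181 to 188 CPM in shControl and 344 to 351 CPM in shArl4c. Within the gamma cluster the Pcdhgc3 segment is larger and the segment of the other 20 genes smaller in shArl4c.

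Of the 54 genes, 36 passed the level filter. Among these 36, 6 were called higher, where 18.9% of all tested genes were, and 10 lower, where 18.0% of all tested genes were. The other 20 did not pass the test. The calls were divided by class: 5 of 6 tested non-clustered genes were higher and 1 lower, against 1 higher and 9 lower of 30 tested clustered genes. The median log2 fold change was 1.28 over the 6 non-clustered genes, -0.27 over the 30 clustered genes and 0.01 over all tested genes. At least 2-fold rises on the log2(CPM + 1) scale were seen in 3 members, Pcdh7, Pcdh17 and Pcdh1, where 1.30% of all tested genes rose as much. Pcdh7 chose the family. Of the called members, Pcdh17, Pcdh11x and Pcdhga2 passed the filter only through the group in which they were high. Their group means therefore had to differ in that direction, although not by any set amount. Pcdhb15 and Pcdhga1 passed only through shControl as well and were not called. For these reasons the counts above are not support for a change of the class.

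**Figure D2:**
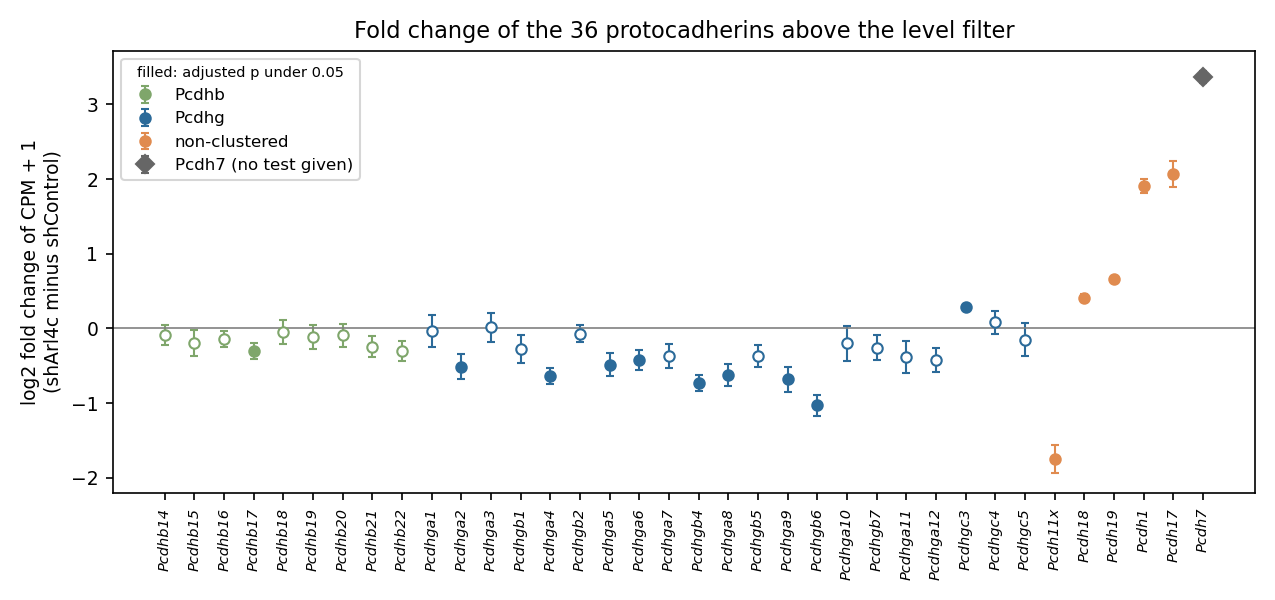
Log2 fold change of CPM + 1 (shArl4c minus shControl) with the SE of the limma fit for the 36 protocadherins above the level filter. The clustered genes are in cluster order, the non-clustered ones by fold change. Filled symbols passed the test, among them Pcdh17, Pcdh11x and Pcdhga2, whose group means had to differ. Pcdh7 is drawn as a diamond with no test. Clustered genes lie between -1.03 and 0.29, and non-clustered genes between -1.75 and 3.37.

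For 4 of the non-clustered genes that were higher in shArl4c, the 250 bases before the annotated start are shown. No window was at hand for Pcdh1, which was also higher, or for Pcdh11x, which was lower. Whether the genes share a regulator was not tested. The sequences are from RefSeq (GRCm38.p6, an older build than the GRCm39 of the deposited values), written 5′ to 3′ on the strand of the gene. Capitals mark the motif CCAAT on either strand (CCAAT or ATTGG).
Pcdh7 (chr5:57717831-57718080, plus strand): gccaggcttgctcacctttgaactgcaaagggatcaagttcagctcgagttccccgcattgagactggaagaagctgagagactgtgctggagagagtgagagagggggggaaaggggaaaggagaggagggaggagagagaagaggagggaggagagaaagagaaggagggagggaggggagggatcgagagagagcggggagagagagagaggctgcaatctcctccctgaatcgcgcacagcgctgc
Pcdh17 (chr14:84443313-84443562, plus strand): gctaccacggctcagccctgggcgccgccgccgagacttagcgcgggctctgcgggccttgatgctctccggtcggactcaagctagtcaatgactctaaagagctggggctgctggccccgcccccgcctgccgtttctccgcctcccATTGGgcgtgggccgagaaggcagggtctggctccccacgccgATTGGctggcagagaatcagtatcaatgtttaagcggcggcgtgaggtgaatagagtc
Pcdh18 (chr3:49757317-49757566, minus strand): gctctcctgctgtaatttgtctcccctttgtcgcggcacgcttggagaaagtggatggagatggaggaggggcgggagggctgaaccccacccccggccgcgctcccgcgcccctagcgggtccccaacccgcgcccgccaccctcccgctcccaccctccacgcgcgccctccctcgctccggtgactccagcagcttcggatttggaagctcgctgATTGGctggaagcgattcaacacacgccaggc
Pcdh19 (chrX:133688994-133689243, minus strand): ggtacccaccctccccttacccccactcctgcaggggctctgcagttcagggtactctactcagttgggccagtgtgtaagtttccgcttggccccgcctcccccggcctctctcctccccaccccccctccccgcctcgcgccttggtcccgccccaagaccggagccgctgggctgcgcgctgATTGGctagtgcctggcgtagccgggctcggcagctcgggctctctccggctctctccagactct
The motif was present in the windows of Pcdh17, Pcdh18 and Pcdh19 and not in that of Pcdh7. RefSeq windows were at hand for 9 protocadherin genes, all non-clustered, and 8 of them held CCAAT, all but Pcdh7, against 33.8% of 32851 promoters of the same length. GGGCGG, the core of the GC box, on either strand was in 4 of the 9 (Pcdh10, Pcdh17, Pcdh18 and Pcdh19) and in 32.7% of all. The window of Pcdh7 was 72.8% purine on the gene's strand, above 99.8% of the promoters, whose median was 50.0%, and that of Pcdh19 was 35.2% purine. TATAAA was in 2 of the 9 (Pcdh8 and Pcdh15) and in 12.4% of all, and GGAATG, the core of the TEAD motif, in 0 of the 9 and in 12.6% of all. Genes with and without CCAAT were both higher in shArl4c. These are counts of letters in a fixed window and draw on no measurement of factor binding.

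Among the delta-1 protocadherins, Pcdh7, whose cytoplasmic tail binds the phosphatase PP1 and the SET protein, was 5.17, 4.84 and 4.63 CPM in shControl 1, 2 and 3 and 64.1, 59.7 and 55.3 CPM in shArl4c 2, 3 and 4. Every shArl4c library was above every shControl library by a wide margin. The means were 4.88 ± 0.269 and 59.7 ± 4.39 CPM, a 12.2-fold difference and a log2 fold change of 3.37. No other tested gene had a larger positive log2 fold change.

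Pcdh1, a delta-1 member known from airway epithelium, was 5.39, 5.58 and 5.46 CPM in shControl and 22.4, 21.7 and 25.8 CPM in shArl4c. The shControl libraries were nearly equal and the groups did not overlap. Its mean rose 4.25-fold, 5.48 ± 0.0974 CPM becoming 23.3 ± 2.18 CPM; in limma the log2 fold change was 1.90 with an SE of 0.10 (adjusted p = 9.18e-12).

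Pcdh11x, the X-linked delta-1 member, was the only non-clustered gene called lower. It was 2.29, 2.35 and 3.56 CPM in shControl and 0, 0.0750 and 0.230 CPM in shArl4c. All 3 shArl4c libraries were at or near the floor. The groups held 109 and 4 reads in all, a ratio of 27.0 at equal depth (95% exact interval 10.3 to 101, counting error only), and the log2 fold change was -1.75 (SE 0.19).

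Of the delta-2 protocadherins, which recruit the WAVE actin regulator or its relatives through their cytoplasmic tails, Pcdh19 was the most abundant. Pcdh19, which binds N-cadherin and is mutated in an X-linked epilepsy, was 129, 135 and 132 CPM in shControl and 208, 213 and 207 CPM in shArl4c. Both groups were tight and far apart. The mean rose 1.58-fold, 132 ± 2.78 CPM against 209 ± 3.20 CPM, at a log2 fold change of 0.66 and an SE of 0.04 (limma adjusted p = 1.58e-10). In absolute terms this gain of 77.0 CPM was larger than that of Pcdh7, 54.8 CPM.

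Pcdh18, which binds the adaptor Dab1, was 38.5, 37.1 and 42.3 CPM in shControl and 53.3, 52.4 and 51.5 CPM in shArl4c, again without overlap. It rose 1.33-fold (39.3 ± 2.68 against 52.4 ± 0.892 CPM), a log2 fold change of 0.41 with an SE of 0.06 (limma adjusted p = 1.76e-05). The message of Dab1 was not listed.

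Pcdh17, a delta-2 member of axons and synapses, was 0, 0 and 0.0827 CPM in shControl, a single read in 3 libraries, and 3.19, 3.07 and 3.67 CPM in shArl4c, 133 reads. At equal depth the read ratio was 134, with a 95% exact interval of 23.7 to 5334 that covers counting error only, and the log2 fold change was 2.07 (SE 0.17). Its level was low in shArl4c and at the floor in shControl.

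The remaining non-clustered genes in the table were Pcdh10 (delta-2), Pcdh12 (an endothelial protocadherin) and Pcdh15 (a component of the tip links of inner-ear hair cells). Their means over 6 libraries were 0.0965 to 0.133 CPM, below the filter, and the groups held 3 to 6 reads each. No difference was detectable at this depth. Pcdh8, Pcdh9 and Pcdh20 were not listed and were not analysed here.

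**Figure D3:**
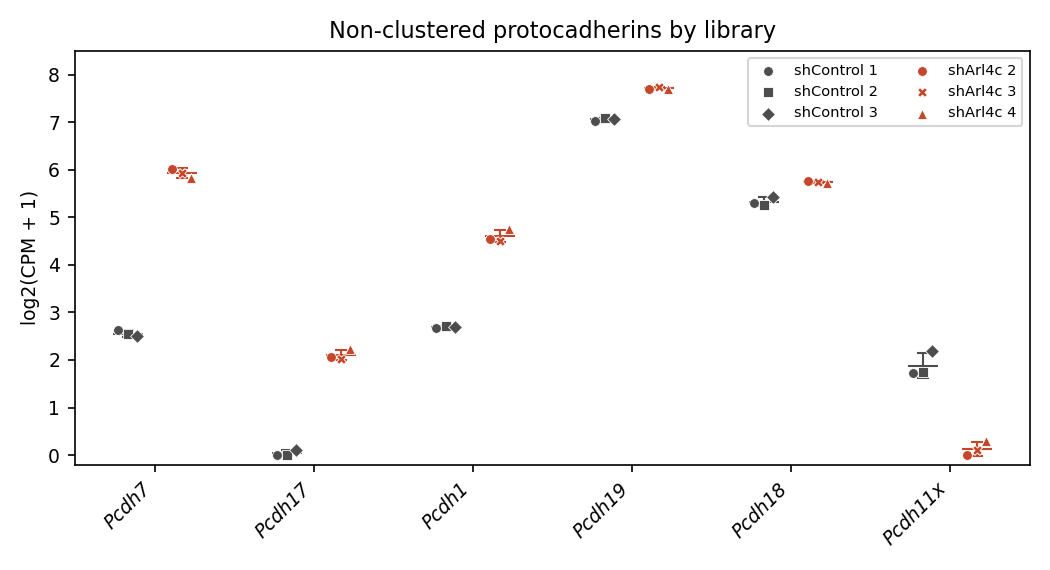
Log2(CPM + 1) of the 6 non-clustered protocadherins above the level filter; symbols are libraries, horizontal lines group means and bars SD (n = 3). In each of the 6 genes the shControl and shArl4c libraries do not overlap, and Pcdh11x alone is lower in shArl4c. Pcdh7 chose the family. Pcdh17 and Pcdh11x passed the filter only through the group in which they were high, so their group means had to differ. Of all tested genes, 22.5% were lower without overlap, and the share higher without overlap was not counted.

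Pcdh19 made up 71.5% of the mean non-clustered sum in shControl and 60.05% of it in shArl4c. The share of Pcdh7 was 2.64% and 17.1%, and that of Pcdh1 2.96% and 6.69%. The order of the genes can be compared only per length, here as CPM per kb of annotated exon. On that scale Pcdh7 was 0.460 ± 0.0254 in shControl, rank 29 of the 54 genes, and 5.63 ± 0.414 in shArl4c, rank 4. Pcdh1 was 0.623 ± 0.0111 (rank 26) and 2.65 ± 0.248 (rank 6). In shArl4c Pcdh1 and the next gene down, Pcdhga10 (2.44 ± 0.738), lay within their spread, and Pcdhgb2, the next gene up, was at 3.21 ± 0.296. The top 3 ranks per kb were Pcdhgc3, Pcdh19 and Pcdh18 in both groups: 41.0, 12.6 and 7.32 CPM per kb in shControl and 50.3, 19.99 and 9.76 in shArl4c.

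Counting within the gamma cluster carries a limit. Sequence shared with other protocadherin genes, the constant exons included, makes up 27.8 to 66.8% of the annotated exonic length of a Pcdhg gene. The share was highest in Pcdhga4 (66.8%) and Pcdhgb1 (54.6%). How RSEM divided reads among members is therefore uncertain for each of them, and the use of strand in counting was not given in the sources used here. The sum over the cluster is free of that division, apart from reads given to Pcdhgb8 (6.51 ± 1.36 and 3.39 ± 1.36 CPM). Pcdhgb8 is typed as a pseudogene in the annotation used, and it was left out of the protocadherin sums and counts for that reason alone. It was itself tested and called lower (log2 fold change -0.80 ± 0.20 SE, adjusted p = 0.0069 in limma). The cluster sum was 377 ± 3.36 CPM in shControl and 389.6 ± 7.12 CPM in shArl4c, a ratio of 1.03.

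Inside that nearly level sum the composition differed. Pcdhgc3, a C-type member expressed in many tissues that binds the Wnt regulator Axin1, was 225, 228 and 223 CPM in shControl and 283, 265 and 281 CPM in shArl4c. It was higher in all 3 shArl4c libraries and shArl4c 3 was the lowest of them. Pcdhgc3 rose 1.22-fold (226 ± 2.50 against 276 ± 9.66 CPM), a log2 fold change of 0.29 with an SE of 0.04 (limma adjusted p = 1.19e-05). Its share of all Pcdhg reads was 60.5, 60.4 and 58.9% in shControl and 73.6, 66.7 and 72.6% in shArl4c.

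The other C-type genes did not pass the test. Pcdhgc4, needed for survival of interneurons, was 8.27, 10.4 and 9.43 CPM against 8.71, 13.3 and 8.42 CPM (log2 fold change 0.08, SE 0.15), and it was -0.11 without shArl4c 3. Pcdhgc5, found at inhibitory synapses, was 12.8, 13.99 and 12.9 CPM against 9.07, 17.4 and 10.4 CPM (log2 fold change -0.15, SE 0.22). In both genes shArl4c 3 was above every other library.

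The A-type and B-type genes, which bear the randomly chosen promoters in neurons, were lower on the whole. Their 18 members, without Pcdhgb8, summed to 128 ± 4.65 CPM in shControl and 90.8 ± 9.61 CPM in shArl4c. The 12 Pcdhga genes gave 72.9 and 51.8 CPM of these sums and the 6 Pcdhgb genes 55.4 and 39.0 CPM. Of the 18, 8 were called lower (18.0% of all tested genes were), 0 higher (18.9% of all) and 10 not, with a median log2 fold change of -0.40. In 9 of the 18 the shArl4c libraries were all below the shControl libraries, which held for 22.5% of all tested genes. Log2 fold changes were negative in 17 of the 18, and in 7105 of all 14740 tested genes. Pcdhga1 and Pcdhga2, both among the 17, passed the filter only through shControl, so their group means had to differ. Pcdhga2 is also among the 8 called lower and the 9 without overlap. These counts are therefore a description.

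Pcdhgb6 had the largest fall. It was 12.3, 12.4 and 12.9 CPM in shControl and 4.79, 7.72 and 4.82 CPM in shArl4c, so the groups were apart and shArl4c 3 was the highest of its group. Pcdhgb6 was 2.17-fold lower (12.5 ± 0.323 against 5.78 ± 1.68 CPM, log2 fold change -1.03 ± 0.14 SE, adjusted p = 1.84e-05 in limma). The fall of Pcdhgb4 was from 12.5, 13.4 and 14.9 CPM to 7.62, 8.24 and 7.50 CPM (log2 fold change -0.73 ± 0.10 SE, adjusted p = 1.05e-05 in limma). In Pcdhga4 the values were 10.04, 11.7 and 11.997 CPM and then 6.82, 6.75 and 6.96 CPM, with the 3 shArl4c libraries almost equal (log2 fold change -0.64 ± 0.11 SE, adjusted p = 8.79e-05 in limma).

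The levels of Pcdhga9 were 7.68, 7.67 and 7.94 CPM in shControl and 3.19, 6.45 and 4.21 CPM in shArl4c (log2 fold change -0.68 ± 0.17 SE, adjusted p = 0.0051 in limma). For Pcdhga8 they were 7.38, 7.93 and 9.43 CPM against 4.07, 6.60 and 4.59 CPM (log2 fold change -0.62 ± 0.15 SE, adjusted p = 0.0028 in limma). In both genes shArl4c 3 lay between the other shArl4c libraries and shControl, and the groups did not overlap.

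Another 3 gamma genes and 1 beta gene were called nearer to the threshold. Pcdhga2 was 1.77, 1.61 and 1.41 CPM against 0.726, 0.974 and 0.765 CPM (log2 fold change -0.51 ± 0.17 SE). Its mean passed the filter only through shControl, so its group means had to differ and it is given with no p. Pcdhga5 was 4.72, 6.32 and 6.04 CPM against 2.83, 3.97 and 4.67 CPM (-0.48 ± 0.16 SE, adjusted p = 0.0214 in limma), the shControl 1 and shArl4c 4 libraries being almost equal. Pcdhga6 was 6.20, 6.25 and 6.12 CPM against 3.99, 5.10 and 4.06 CPM (-0.42 ± 0.13 SE, adjusted p = 0.0148 in limma). These calls depended on single libraries. That of Pcdhga2 was lost when shControl 1, shControl 2, shArl4c 2 or shArl4c 4 was left out (log2 fold change -0.51 to -0.46). That of Pcdhga5 was lost without shControl 2, shControl 3 or shArl4c 2 (limma adjusted p 0.0955 to 0.119), and that of Pcdhga6 without shControl 1, shControl 2, shArl4c 2 or shArl4c 4 (limma adjusted p 0.0513 to 0.0577). The other 5 gamma genes called lower were called in every alternative run.

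Library shArl4c 3 stood apart from the rest of its group, in the clusters and beyond them. It was the highest of its group in 13 of the 18 A-type and B-type genes, and in 13 of the 18 shArl4c 2 and shArl4c 4 were both below all shControl libraries. It was also the highest of its group in 6 of the 9 tested Pcdhb genes. How often the same held over all tested genes was not counted. These counts therefore do not show a trait particular to the clusters in shArl4c 3. Without it, calls over all tested genes numbered 6625 in place of 5445, and 14 Pcdhg genes were called lower in place of 8: Pcdhga7, Pcdhgb5, Pcdhgb7, Pcdhga11, Pcdhga12 and Pcdhgc5 were added, at log2 fold changes of -0.65 to -0.41. With all libraries Pcdhga11 was 6.35, 5.51 and 7.36 CPM against 3.70, 7.27 and 3.67 CPM, and its log2 fold change moved from -0.38 to -0.65. Without shControl 2 or without shArl4c 2, 5 Pcdhg genes were called lower. Pcdhga10 went the other way: it was 12.4, 11.6 and 15.1 CPM against 14.1, 7.57 and 13.01 CPM, where shArl4c 3 was the lowest library of all 6.

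**Figure D4:**
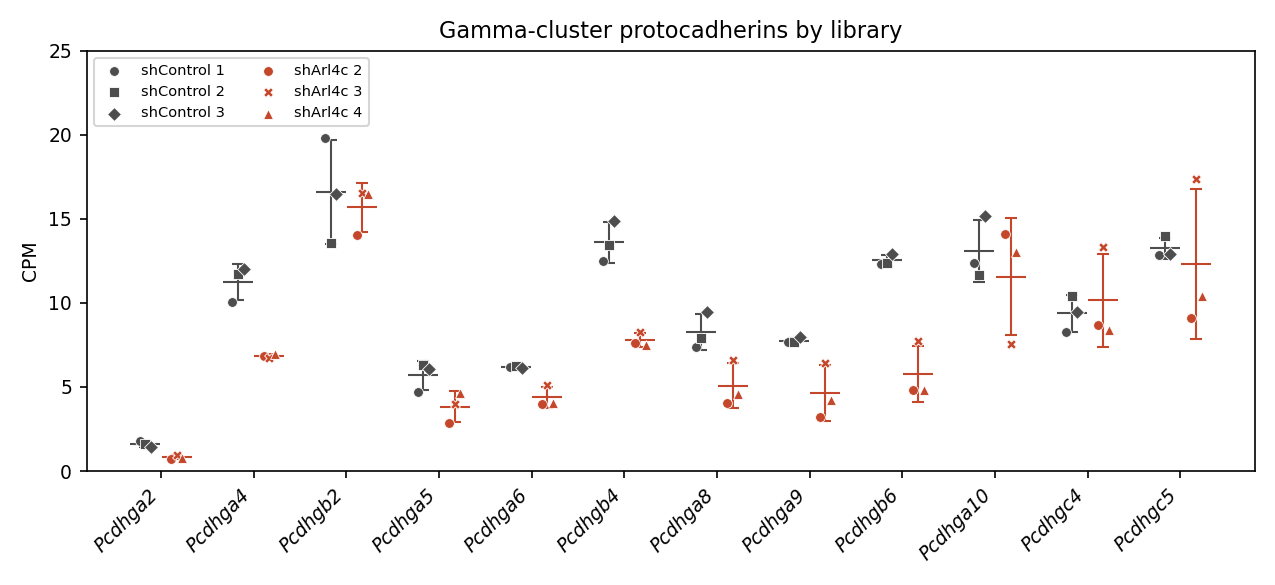
CPM by library of the 8 gamma-cluster genes called lower and of 4 that did not pass the test (Pcdhgb2, Pcdhga10, Pcdhgc4 and Pcdhgc5), in cluster order; horizontal lines are group means, bars SD (n = 3), and crosses mark shArl4c 3. In the 8 called genes the groups do not overlap (22.5% of all tested genes were lower without overlap). Among them, the group means of Pcdhga2 had to differ. In Pcdhgc4 and Pcdhgc5 the cross lies above all other libraries and in Pcdhga10 below them.

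The highest A-type or B-type gene by mean CPM was Pcdhgb2, at 19.8, 13.6 and 16.5 CPM in shControl and 14.01, 16.6 and 16.5 CPM in shArl4c. Its groups overlapped (log2 fold change -0.07, SE 0.12). Pcdhga3 had the 1 positive log2 fold change of the 18, 0.01 (SE 0.20), at 1.37 ± 0.326 and 1.44 ± 0.590 CPM. Neighbours along the cluster had different calls: Pcdhga4 was called lower, Pcdhgb2 next to it was not, and Pcdhga5 beyond it was. Over the 21 gamma genes Spearman's rho between position in the cluster and log2 fold change was 0.15, a description of genes that share exons and libraries.

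The beta genes, which share almost no exonic sequence in the annotation (0 to 9.67% of length), had 1 of 9 tested members called lower and 0 higher, below the 18.0% and 18.9% over all tested genes. Their 21 members summed to 52.2, 47.7 and 52.5 CPM in shControl and 44.2, 47.1 and 41.9 CPM in shArl4c, without overlap. The nearest libraries, shControl 2 and shArl4c 3, were 47.7 and 47.1 CPM. All 9 tested beta genes had negative log2 fold changes, from -0.30 to -0.05 with a median of -0.14, where 7105 of all 14740 tested genes were negative. Of the 9, 8 did not pass the test, and Pcdhb15 passed the filter only through shControl (1.27 ± 0.173 and 0.993 ± 0.242 CPM). All 9 were measured in the same 6 libraries, so their shared sign is a description. The called gene, Pcdhb17, was 10.3, 8.81 and 8.94 CPM against 7.33, 7.87 and 6.89 CPM (log2 fold change -0.30 ± 0.11 SE, adjusted p = 0.0366 in limma). Without shArl4c 3 its adjusted p was 0.0116, and leaving out any of the other 5 libraries ended the call (limma adjusted p 0.0593 to 0.175). Pcdhb16, the highest beta gene by mean CPM, was 10.9, 10.2 and 11.5 CPM against 9.73, 11.2 and 8.57 CPM and overlapped between the groups (log2 fold change -0.14, SE 0.11).

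Expression in the beta cluster followed position. The first 12 listed genes, Pcdhb2 to Pcdhb13, had means of 0.0714 to 0.799 CPM and none reached the filter, whereas the last 9, Pcdhb14 to Pcdhb22, had means of 1.13 to 10.3 CPM and all were tested. Per kb of exon, the shControl levels were 0.00655 to 0.220 in the first stretch and 0.454 to 2.08 in the second. Spearman's rho between position and mean CPM per kb was 0.84 over the 21 beta genes and 0.52 over the 21 gamma genes. These correlations describe genes within the same 6 libraries, whose levels also rest on annotated lengths. Among the first 12, 5 genes (Pcdhb6, Pcdhb7, Pcdhb8, Pcdhb12 and Pcdhb13) had more reads in shArl4c than in shControl. Pcdhb6, singled out after its values were seen, had 1 read in shControl and 8 in shArl4c, a ratio of 8.06 with an exact 95% interval of 1.08 to 358; the intervals of the other 4 included a ratio of 1.

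**Figure D5:**
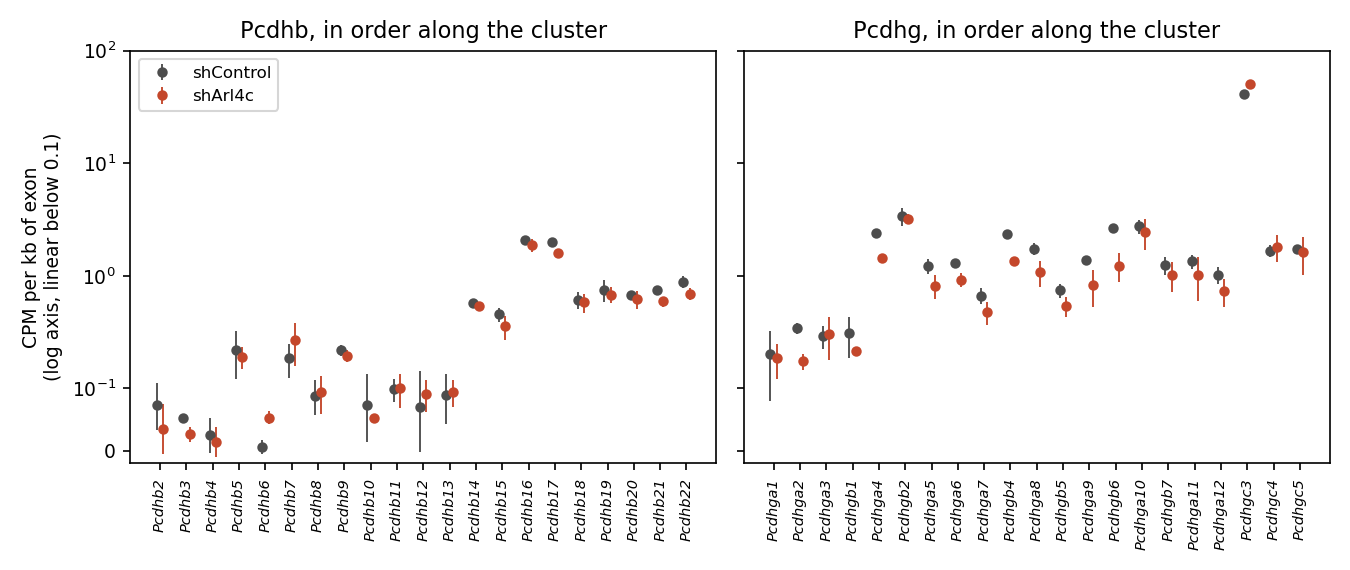
CPM per kb of annotated exon for the Pcdhb genes (left) and Pcdhg genes (right) in cluster order; points are group means and bars SD (n = 3), on an axis that is logarithmic above 0.1 and linear below. Levels step up between Pcdhb13 and Pcdhb14, and Pcdhgc3 stands above all others at 41.0 and 50.3 CPM per kb.

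The alpha cluster was nearly silent. Of 14 annotated genes, 3 were listed: Pcdha9, Pcdha11 (under 1 of the 2 identifiers that carry this symbol) and the C-type gene Pcdhac2. Their means over the 6 libraries were 0.0931 to 0.283 CPM and none was tested. Together they held 33 reads in shControl and 8 in shArl4c, a ratio of 4.09 at equal depth (95% exact interval 1.85 to 10.3, counting error only), and the summed CPM were 0.886, 0.941 and 0.579 against 0.363, 0.0750 and 0.153. The groups did not overlap, with shControl 3 lowest of its group and shArl4c 2 highest of its own. With exons shared with other protocadherin genes making up 48.6 to 53.5% of the length of each gene, these reads cannot be placed firmly on 1 member.

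Genes that act with the protocadherins were examined in lists, whose counts are to be read against the 18.9% of all tested genes called higher and the 18.0% called lower. The factors that govern promoter choice, looping and silencing at the clusters had 24 of 25 genes tested, 7 higher (18.9% over all tested genes) and 3 lower (18.0% over all), with a median log2 fold change of 0.05. Dnmt1, the maintenance DNA methyltransferase, rose from 159 ± 1.47 to 204 ± 7.66 CPM (0.35 ± 0.04 SE, adjusted p = 1.44e-06 in limma). The cohesin ring subunit Smc1a rose from 92.5 ± 2.83 to 114 ± 3.09 CPM (0.30 ± 0.04 SE, adjusted p = 2.35e-05 in limma). Setdb1, a histone H3 lysine-9 methyltransferase that shields the clusters in neurons, rose from 73.6 ± 2.001 to 91.8 ± 2.72 CPM (0.31 ± 0.05 SE, adjusted p = 2.45e-05 in limma). The 3 called lower were the DNA methyltransferase Dnmt3a (log2 fold change -0.38), Tet3 (-0.32) and Wiz (-0.23). Ctcf had a log2 fold change of 0.06 and did not pass the test.

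The cytoplasmic partners and effectors had 20 of 23 genes tested, 4 higher (18.9% over all tested genes) and 7 lower (18.0% over all), with a median of -0.01. Fyn, a Src-family kinase downstream of clustered protocadherins, fell from 116 ± 0.944 to 56.8 ± 3.21 CPM (log2 fold change -1.02 ± 0.05 SE, adjusted p = 4.67e-12 in limma). N-cadherin (Cdh2), the partner of Pcdh19, fell from 98.7 ± 1.74 to 73.0 ± 1.49 CPM (log2 fold change -0.43, SE 0.05). Wasf3, a subunit of the WAVE complex, fell from 6.13 ± 0.819 to 1.47 ± 0.427 CPM (log2 fold change -1.54, SE 0.16). Cdh2 was lower where its binding partner Pcdh19 was higher. The sheddases and gamma-secretase subunits, which release protocadherin fragments from the membrane, had 11 genes tested, 4 higher and 2 lower, against 18.9% and 18.0% over all tested genes, with a median of 0.00. Mmp14 (log2 fold change -0.64) and Psen2 (-0.51) were lower and Adam17 (0.20) higher. The number called in that list was 2 without shControl 2 and 3 without shControl 3, shArl4c 2 or shArl4c 4.

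The large cadherins, giant relatives of the protocadherins, had 7 of 14 genes tested, 0 higher and 6 lower, where 18.0% of all tested genes were lower, with a median of -0.96. Dchs1 and Fat4, a ligand and receptor pair of planar polarity, fell from 61.1 ± 2.16 to 15.4 ± 0.537 CPM (log2 fold change -1.92 ± 0.06 SE, adjusted p = 1.49e-14 in limma) and from 282 ± 6.70 to 102 ± 8.13 CPM (-1.46 ± 0.05 SE, adjusted p = 9.37e-14 in limma). Dchs2 fell from 11.002 ± 0.411 to 4.03 ± 0.181 CPM (-1.25 ± 0.11 SE, adjusted p = 3.83e-08 in limma). They thus lay on the opposite side from Pcdh7, Pcdh1, Pcdh18 and Pcdh19. Most tested protocadherins, 28 of 36, had negative log2 fold changes, the side of these large cadherins, where 7105 of all 14740 tested genes did. Of the 36, 20 did not pass the test. The 28 include Pcdh11x, Pcdhga2, Pcdhga1 and Pcdhb15, which passed the filter only through shControl.

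Genes flanking the clusters had 21 of 24 tested, 3 higher and 3 lower, with a median of -0.04. Neither share was above the 18.9% and 18.0% over all tested genes. The 3 with the smallest adjusted p were Diaph1 (log2 fold change 0.28), Fchsd1 (-0.32) and Gnpda1 (0.36). Taf7, an intronless gene between the beta and gamma clusters, was 3.28 ± 0.865 and 2.80 ± 0.547 CPM and did not pass the test. The number called in this list was 2 without shControl 1 and 3 without shControl 2 or shArl4c 2.

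Markers of cell types were summed per library, since protocadherins mark several of them. The 8 mesenchymal markers summed to 30488 to 31899 CPM in shControl and 18499 to 19338 CPM in shArl4c, with Col1a1, Col1a2 and Prrx1 lower and Pdgfra and Pdgfrb higher. Col1a1 and Col1a2 made up most of this sum. Vim and Twist1 did not pass the test, and Thy1 was below the filter. The epithelial sum was 5.98 to 6.93 and 7.65 to 8.42 CPM (6 of 8 listed, Epcam and Cldn4 not listed). Most of it was Trp63 (5.17 ± 0.254 and 6.37 ± 0.178 CPM), which did not pass the test (adjusted p = 0.106 in limma). The rest were below the filter: Krt14 and Krt8 had higher means in shArl4c, and Krt5, Krt18 and Cdh1 lower ones (Cdh1 0.321 and 0 CPM). The neuronal sum was 18.9 to 22.7 and 13.6 to 15.3 CPM (5 of 8 listed, with Rbfox3, Snap25 and Dcx not listed). Of the neuronal markers, Tubb3 was called lower. Map2 was lower too (3.54 ± 0.181 and 0.797 ± 0.122 CPM). It passed the filter only through shControl, so its group means had to differ, and its call is no support. Syn1 (7.81 ± 0.330 and 8.49 ± 0.810 CPM, log2 fold change 0.10) did not pass the test, and Syp and Elavl3 were below the filter. Endothelial markers summed to 1.48 to 2.07 and 1.07 to 1.74 CPM (3 of 6 listed) and leukocyte markers to 5.05 to 5.46 and 7.11 to 8.24 CPM (5 of 6 listed). Of the leukocyte markers, Cd68 rose from 2.79 ± 0.397 to 5.77 ± 0.207 CPM (adjusted p = 6.98e-05 in limma), while Cd74 was 0.933 and 0.574 CPM and Lyz2 1.24 and 1.03 CPM. The part of these shifts in the protocadherin differences was not tested.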

How the data were processed

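Expression was measured by RNA sequencing in 6 libraries of mDE6. The authors deposited 1 table of CPM values per gene and library. The reads were processed with Trimmomatic 0.38, RSEM 1.3.0, edgeR and Bowtie2 on GRCm39, per the submitters' processing notes. The deposited CPM values were whole multiples of 1 read in 100% of cases (tolerance 0.001 of a read), so reads were recovered from them. Columns were matched to groups by hairpin name, to no single sample, and 0 value columns were left unused.

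Of 22032 identifiers, 21880 matched a symbol. Gene types, cluster order and exon lengths came from GENCODE M21 (GRCm38), in which Pcdhgb8 is a pseudogene and was left out; no GRCm39 annotation was used here. The members and gene lists were chosen with earlier results of these data known.

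Log2(CPM + 1) values of genes averaging 1 CPM or more were fitted with limma 3.58.1 in R 4.3.3 (trend, robust), and p-values were adjusted over all 14740 genes. Recovered reads were also tested with edgeR 4.0.16 and DESeq2 1.42.0. Other alternatives were pseudocounts of 0.1, 0.5 and 5, no filter or one at 5 CPM, other scalings, no moderation trend, array weights, leaving out each library and a replicate block. Steps were tested on simulated data. Named genes were every member past the threshold, every non-clustered member of at least 1 CPM, the highest member of each cluster, and the 3 smallest adjusted p of each list. Some other list members were named beside these.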

Additional observations from a re-analysis of the deposited data

How the results depend on the processing

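Pcdh7, Pcdh17, Pcdh11x and Pcdhga2, which chose the family or had group means that had to differ, are left out of this account of single calls. Of the other called members, Pcdh1, Pcdh18, Pcdh19 and Pcdhgc3 (higher) and Pcdhga4, Pcdhgb4, Pcdhga8, Pcdhga9 and Pcdhgb6 (lower) kept their call under every alternative in which they were tested, and Pcdhb17, Pcdhga5 and Pcdhga6 did not. The number called lower was 16 with array weights and 6 with DESeq2, and ran from 6 to 16 when single libraries were left out: 6 without shControl 2 or without shArl4c 2, and 16 without shArl4c 3. The ratio of summed Pcdhg CPM was 1.06 in plain CPM. In the fit with a replicate block on the column numbers 2 and 3 that both groups carry, 3419 genes were called in place of 5445. Same-numbered libraries did not deviate together (r = -0.01 and -0.12), so the numbers were not taken as pairs; under that block the calls of Pcdhb17, Pcdhga2 and Pcdhga6 were lost and Pcdhgb2 turned to 0.025. Of the 20 tested members not called, 8 changed direction when some library was left out. Of those named in the report, Pcdhgb2 ran from -0.196 to 0.0597, Pcdhga10 from -0.352 to 0.0563, Pcdhgc4 from -0.112 to 0.191 and Pcdhgc5 from -0.409 to 0.0248 on the log2 scale, and Pcdhgc4 was -0.0675 with array weights. The cause of these shifts was not tested. Counts of calls in the classes and lists also moved by over 1.5 times: Pcdhg genes lower were 13 with array weights and 5 with DESeq2 (8 in the report), Pcdhb genes lower 0 to 2 (1), promoter and chromatin factors called 6 without moderation trend and under the block (10), cytoplasmic partners 7 and 6 under the same settings (11), shedding genes 2 with DESeq2 and 1 under the block (6), and flanking genes 1 and 2 (6). Depth limits the 18 genes below 1 CPM, which had too few reads for the test.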
